A study of Raphanus sativus with 8 samples.

Results

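The response to gibberellin (GA) shared by 2 inbred radish lines was taken from RNA-seq of whole shoots. All 8 of the 8 libraries in the series were used, 4 with GA against 4 without, with the line as an additive term, and the unigenes described are those that moved the same way in each line. Of the lines, NH-JS1 bolts late and NH-JS2 early. Seedlings of both lines were vernalized at 4 days of age for 10 days, grown on for 14 days, and harvested 6 days later. The groups NH-JS1_GA and NH-JS2_GA had been sprayed on the leaves with 10 mM GA, and the groups NH-JS1 and NH-JS2 had no GA. Each group had 2 libraries (n = 2), each from 3 pooled plants. The labels call every GA library bolting and every other library vegetative growth, so that the treatment and the labelled stage cannot be told apart here. For NH-JS1_GA the label is in doubt, since the study describes that line as hardly bolting after GA, and the stage at harvest is unclear.

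Gibberellins are growth hormones that lengthen stems and promote flowering in many rosette plants. The hormone binds the receptor GID1, the complex takes up a DELLA protein, and the F-box protein SLY1 marks the DELLA for degradation, which lifts its repression of growth. The active hormone is made by GA20OX and GA3OX enzymes and inactivated by GA2OX enzymes, and in Arabidopsis the transcripts of several of these genes are under feedback control by the hormone. Growth of stem cells also needs a wall that yields, which is remodelled by pectin methylesterases, xyloglucan endotransglucosylases (XTH) and expansins. Radish unigenes are named here by their match in Arabidopsis, and the roles given are those known in that species.

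Total counts per library ranged from 23757588 to 34165272, with a median of 28221886. Values are normalised read counts, which are deposited counts scaled to a common library size. A log2 fold change is of GA against no GA and is followed, after ±, by its standard error. Every deposited count was at least 1, and a unigene at 1 in all 4 libraries of a line is said to stand at the floor there. Photosynthesis genes were abundant, with a median level of 78700 over 7 unigenes of LHCB1.4 and RBCS1B. Of 8 root markers 1 was in the table (SHR). Of 10 floral markers 4 were, and the 8 unigenes tested had a median level of 53.7. Where more than 1 unigene has the same match, reads of similar copies may have been split among them, so that each such value is uncertain. In bulk shoots, fewer cells of a type and less RNA per cell cannot be told apart.

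Few unigenes passed the edgeR test for a GA effect over both lines. The edgeR test called 34 of 65934 unigenes at an adjusted p of at most 0.05 (0.0516%), and each had the same sign in the 2 lines, 6 higher (0.0091%) and 28 lower (0.0425%). Of these, 5 lower unigenes without an Arabidopsis match stood at the floor in NH-JS2 and say nothing of that line. The other 29 were 6 higher (0.00925% of the 64840 unigenes above the floor in both lines) and 23 lower (0.0355%). They belong to 19 Arabidopsis genes, 3 higher and 16 lower, and 1 unigene without a match. The higher genes encode wall enzymes, 2 pectin methylesterases and 1 XTH. Among the lower genes were a lectin, a lipid transfer protein, a Kunitz inhibitor and genes known to be induced by jasmonate in Arabidopsis.

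The 29 were chosen by the fit to these same 8 libraries, so that their values by line are a description and no further support. All 29 had an unadjusted p under 0.05 in each line from edgeR, beside 7.98% of the tested table in the late line and 8.77% in the early one, and the libraries with and without GA did not overlap in either line. Over all unigenes above the floor, the libraries failed to overlap upward in both lines for 5.88% and downward for 6.8%. The fold change was larger in NH-JS2 for 19 of the 29 and in NH-JS1 for 10. The difference between the lines was tested as an interaction in edgeR, where the unadjusted p ranged from 0.0686 to 0.933 and the adjusted p was 1 throughout, which does not show that the lines responded equally. The additive fit counts a difference between the lines as spread, so unigenes with unequal changes were less likely to be among the 29. Their interaction p-values are therefore no test of whether the response was shared. Over all unigenes the interaction had an adjusted p of at most 0.05 for 0.0592% and an unadjusted p under 0.05 for 4.22%. In 1 line alone fewer passed, with 4 of the 29 in NH-JS1 (0.0819% of all unigenes) and 1 in NH-JS2 (0.0637%) at an adjusted p of at most 0.05. Absolute log2 fold changes reached 1 in 15 of the 29. At the thresholds of the study's methods (absolute log2 fold change of 0.6, adjusted p of 0.01, mean count of 500) edgeR called 0 higher unigenes and 1 lower (0.00152%), TBIU064213, which stood at the floor in NH-JS2. DESeq2 called 10 higher and 46 lower at these thresholds. The study applied them with DESeq within each line and reported shared genes in both directions, so that its counts are not like those of the additive fit. The largest adjusted p among the calls was 0.0476, and the smallest beyond them was 0.0561 for CRK8, also at the floor in NH-JS2. With the limit at 0.10, 26 were higher (0.0401%) and 94 lower (0.145%) above the floor.

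Summing the counts over all unigenes of a match left 1 of the 19 genes called by edgeR, AT2G45220. The other 18, among them PME61, XTH24, CORI3, VSP2, LTP5, AT3G16530 and 3 genes with 1 unigene each, kept their direction and an unadjusted p under 0.05 but had adjusted p from 0.0783 to 0.301. Summed in this way, AT3G06780 (−0.62 in NH-JS1 and −1.34 in NH-JS2) and LTP5 (−0.91 and −0.49) had an unadjusted interaction p under 0.05 from edgeR. Of the 39 unigenes that share a match with a call and were not called, 7 had an unadjusted interaction p under 0.05 and 0 an adjusted one of at most 0.05 from edgeR.

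Many calls were lost when 1 library was left out. A fit on fewer libraries has less power, so a lost call need not have rested on the library left out. Without NH-JS1 replicate 2, or without either library of NH-JS2_GA, 0 of the 29 passed an adjusted p of 0.05. The number that passed was 7 without NH-JS1 replicate 1, 3 without NH-JS1_GA replicate 1, 2 without NH-JS1_GA replicate 2, 15 without NH-JS2 replicate 1 and 13 without NH-JS2 replicate 2. In each of these 8 fits all 29 kept their direction and an unadjusted p under 0.05. DESeq2 gave an adjusted p for 24 of the 29 and called all 24. It called many more unigenes than edgeR, 145 higher (0.224%) and 528 lower (0.814%) among those above the floor in both lines.

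Across the 64840 unigenes above the floor, which are not independent replicates, the fold changes of the lines correlated at Pearson's r = 0.185 and Spearman's rho = 0.244. The sign was shared by 59.8% of them. The 37491 unigenes with a mean of at least 100 gave r = 0.282, rho = 0.363 and a shared sign in 63.1%. The lines share no library, although all libraries were scaled together. Most of the cloud in the plot of the lines' fold changes lay near 0 in both lines, and the called unigenes lay along its diagonal.

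**Figure D1:**
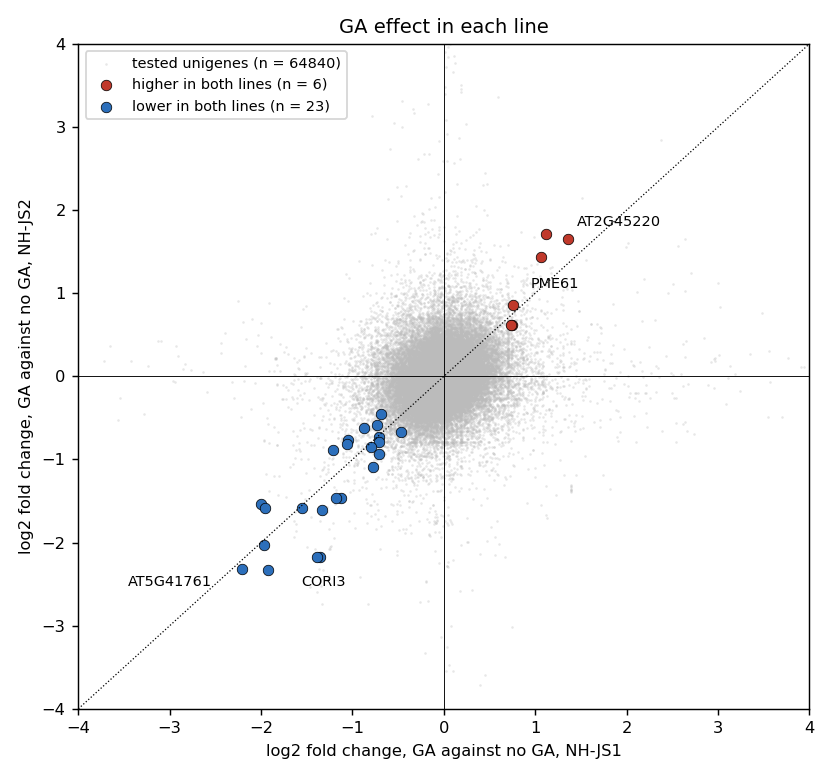
Log2 fold change of GA against no GA in NH-JS1 (horizontal) and in NH-JS2 (vertical) for the 64840 unigenes above the floor in both lines (grey), with the 6 higher (red) and 23 lower (blue) calls of the additive edgeR fit and the line of equal change (dotted), 50 unigenes beyond ±4 not being drawn. The calls lie in the lower left and upper right quadrants, which the rule itself requires.

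The increase by the highest fold was in AT2G45220, which encodes a pectin methylesterase, an enzyme that removes methyl groups from wall pectin. All 3 of its unigenes were called. TBIU006375 stood at 194 and 153 without GA and 469.7 and 422 with GA in NH-JS1, and at 63.3 and 92.6 without and 236 and 250.4 with GA in NH-JS2. Every GA library was thus above every library without GA, also between lines. It had a log2 fold change of 1.49 ± 0.131 (edgeR, adjusted p = 0.0169), and the fold changes by line were 1.36 in NH-JS1 and 1.66 in NH-JS2. The other unigenes, TBIU006377 and TBIU006376, rose by 1.24 and 1.38 on the log2 scale (adjusted p = 0.0464 for each, edgeR). Counts summed over its 3 unigenes had 1.35 (adjusted p = 0.0463 from edgeR).

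PME61, another pectin methylesterase, rose in 1 of its 6 unigenes. TBIU042773 had 1557 and 1337 normalised read counts without GA and 2493 and 2388 with GA in NH-JS1. In NH-JS2 it went from 1305 and 949.9 to 2112 and 1987, so that the lowest GA library was again above the highest library without GA. Its log2 fold change of 0.81 ± 0.105 (edgeR, adjusted p = 0.0467) was the mean of closely similar values, 0.75 in NH-JS1 and 0.86 in NH-JS2. The other 5 unigenes of PME61 had log2 fold changes from 0.78 to 1.03 with an unadjusted p under 0.05 and did not pass the adjusted threshold.

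XTH24, also known as MERI-5, encodes an enzyme that cuts and rejoins xyloglucan chains between cellulose fibrils, and it was the most abundant of the higher genes. TBIU046406 stood at 3929.6 and 3756 in untreated NH-JS1 and at 5864 and 6926 after GA, and in NH-JS2 at 5624 and 5056 and at 8432 and 7982. All GA libraries were above all others, although untreated NH-JS2 came close to the level of NH-JS1 after GA. The increase was 0.68 on the log2 scale (standard error 0.0878, adjusted p = 0.0464 from edgeR). TBIU046405 rose by 0.68, and the other 3 of the 5 unigenes had log2 fold changes from 0.55 to 0.69 without passing (adjusted p from 0.0572 to 0.229 from edgeR).

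The lists of pectin-modifying, XTH and expansin unigenes each had more positive than negative fold changes among unigenes past an unadjusted p of 0.05. The pectin list was drawn by description and also holds ATPGIP1, a polygalacturonase inhibiting protein. Its TBIU047902 (0.63) was among the higher and its TBIU020376 (−0.83) among the lower calls of DESeq2. Of 242 pectin-modifying unigenes 4 rose and 0 fell by edgeR, and without adjustment 42 were higher and 23 lower (p under 0.05), beside 5.16% and 7.58% of all unigenes, while DESeq2 called 13 higher and 4 lower, beside 0.22% and 0.81%. Of 41 XTH unigenes 2 rose and 0 fell, with 13 higher (31.7%) and 1 lower unadjusted, 6 higher and 0 lower by DESeq2, and a median log2 fold change of 0.23 against 0.00058 over all tested. Of 56 expansin unigenes 0 were called by either tool, and edgeR had 11 higher (19.6%) and 1 lower without adjustment. Libraries separated upward in both lines for 12.8% of pectin-modifying, 19.5% of XTH and 14.3% of expansin unigenes, beside 5.88% of all unigenes. Not all members went up. ATPME3, an abundant pectin methylesterase, had log2 fold changes of −0.43, −0.42 and −0.40 in 3 unigenes, which DESeq2 called lower and edgeR did not (adjusted p from 0.123 to 0.157).

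**Figure D2:**
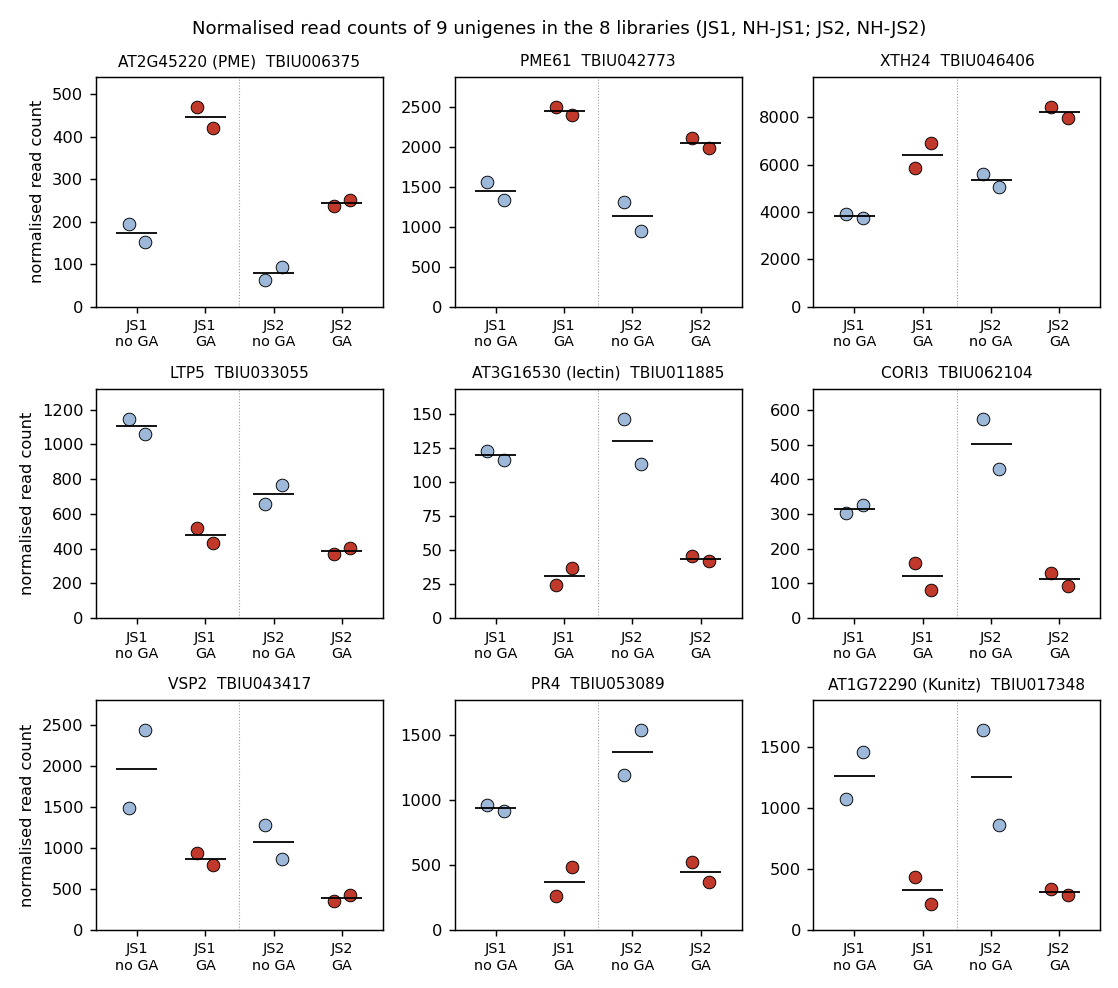
Normalised read counts of 9 called unigenes in each of the 8 libraries (points; blue, no GA; red, GA), with the mean of each group of 2 as a line and the vertical axes starting at 0. In the top row (AT2G45220, PME61 and XTH24) the GA libraries lie above those without GA in each line, and in the other 6 panels they lie below.

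Among the lower genes, CORI3 encodes a tyrosine transaminase-like protein induced by coronatine and jasmonate in Arabidopsis, and all 3 of its unigenes fell. TBIU062104 stood at 304 and 325 without GA and 159 and 82.1 with GA in NH-JS1, and at 575 and 430.0 and 131 and 93.3 in NH-JS2. The highest GA library was below the lowest library without GA. Its log2 fold change of −1.78 ± 0.227 (edgeR, adjusted p = 0.0464) came from −1.39 in NH-JS1 and −2.17 in NH-JS2, with an unadjusted interaction p of 0.0817 from edgeR. TBIU062103 fell to the same degree (−1.77). TBIU072492, with 37.8 and 47.0 normalised read counts in untreated NH-JS1 and 13.1 and 9.01 after GA, had a log2 fold change of −2.15.

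VSP2, a vegetative storage protein that is a common marker of the jasmonate response, fell as well. Its 1 unigene, TBIU043417, had 1493 and 2441 normalised read counts in untreated NH-JS1 and 941 and 790.0 after GA, against 1277 and 861 in untreated NH-JS2 and 357 and 420.4 after GA. The replicates without GA were far apart, and the GA libraries lay below both of them in each line. The log2 fold change of −1.32 ± 0.177 (edgeR, adjusted p = 0.0476) was close to the threshold. PR4, a pathogenesis-related protein with a chitin-binding domain, went from 958 and 912 to 258 and 484 in NH-JS1 and from 1193 and 1533 to 523 and 370.5 in NH-JS2 in TBIU053089, where all GA libraries were below all others. This was a log2 fold change of −1.47 ± 0.189 (edgeR, adjusted p = 0.0464). A further unigene of PR4, TBIU053077, had −1.31 and did not pass (adjusted p = 0.109 from edgeR), at means of 293 in NH-JS1 and 4315 in NH-JS2 without GA. The third unigene, TBIU053076, had −0.37 with libraries that overlapped (adjusted p = 0.506 from edgeR).

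ERF15, an ethylene response factor, fell in 1 of 2 unigenes. TBIU008686 stood at 308 and 319 and, with GA, at 182 and 183 in NH-JS1, and in NH-JS2 at 344 and 300.0 and, with GA, at 178 and 125. Replicates were tight and the groups did not overlap, also between lines, with a log2 fold change of −0.93 ± 0.121 (edgeR, adjusted p = 0.0464). AT1G72290 encodes a Kunitz-type protease inhibitor, a class that acts against the digestive proteases of insects. Its unigene TBIU017348 had 1072 and 1455 normalised read counts without GA and 436 and 211 with GA in NH-JS1, and 1637 and 863 against 334 and 281 in NH-JS2. The levels of this unigene fell by nearly the same factor in both lines, −1.96 in NH-JS1 and −2.03 in NH-JS2 on the log2 scale (combined standard error 0.248, adjusted p = 0.0464 from edgeR). It was 1 of 14 unigenes with this match, and the match was loose, with an identity of 56.5%. Of the 14, 8 had an unadjusted p under 0.05 and 12 had the same direction. TBIU013171, the most abundant of the 14 and a closer match (88.84%), had −0.97 in NH-JS1 and −1.82 in NH-JS2. It, TBIU075776 and TBIU018358 fell in both lines with libraries that did not overlap, and did not pass (adjusted p from 0.16 to 0.22, edgeR). Others with a closer match had unlike values by line. TBIU017347 had −0.10 in NH-JS1 and −1.87 in NH-JS2, with an adjusted interaction p of 1 from edgeR (0.00633 unadjusted). TBIU013173 had −0.03 in NH-JS1 and −1.67 in NH-JS2, with an adjusted interaction p of 1 from edgeR (0.0108 unadjusted). Summed over the 14, the gene had −0.44 in NH-JS1 and −0.93 in NH-JS2 and did not pass (adjusted p = 0.239 from edgeR).

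A list of 33 genes of jasmonate and ethylene synthesis, signalling and response was drawn up after these values were seen, and it holds several of the genes above, so that it is no independent support. Of its 98 tested unigenes 6 were lower and 0 higher by edgeR, those of CORI3, VSP2, PR4 and ERF15. At an unadjusted p under 0.05, 16 were lower (16.3%, beside 7.58% of all unigenes) and 1 higher (1.02%, beside 5.16%), and by DESeq2 10 were lower (10.2%, beside 0.81%) and 0 higher. The median log2 fold change was −0.11. PDF1.2, a plant defensin that serves as a marker of the joint ethylene and jasmonate response, was very abundant, with NH-JS1 means of 14992 and 10374 and NH-JS2 means of 17861 and 11501 without and with GA for TBIU020288. Its log2 fold change of −0.58 did not pass (adjusted p = 0.196 from edgeR). The list of 60 unigenes found by the word jasmonate in the description had 0 called by edgeR, 4 higher and 2 lower unadjusted, and 1 lower by DESeq2.

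In a list of 10 salicylic acid markers, drawn up in the same way, 0 of 56 unigenes were called by edgeR, although 12 were lower and 0 higher without adjustment (p under 0.05) and DESeq2 called 1 lower. The 12 are 21.4% of the list, beside 7.58% of all unigenes lower and 5.16% higher, and the 1 is 1.79%, beside 0.81%. PR2, a beta-glucanase induced in defence, made up 6 of the 12. The most abundant of them, TBIU058409, fell short of the threshold with NH-JS1 means of 3025 and 1207 and NH-JS2 means of 1776 and 825 without and with GA, at a log2 fold change of −1.22 (edgeR, adjusted p = 0.168). The list of 58 pathogenesis-related and chitinase unigenes had 1 lower by edgeR (PR4) and 4 lower by DESeq2, with 10 lower (17.2%) and 3 higher (5.17%) unadjusted.

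AT3G16530 encodes a legume lectin, a carbohydrate-binding protein, and 3 of its 5 unigenes fell. TBIU011885 was at 123 and 116 without GA and 24.2 and 37.0 with GA in NH-JS1, and at 146 and 113 and 45.5 and 41.6 in NH-JS2. All 4 GA libraries were below the other 4. It had a log2 fold change of −1.76 ± 0.16 (edgeR, adjusted p = 0.0169). TBIU006463 had −1.75 and TBIU007593 had −1.57, and the other 2 unigenes had −1.52 and −1.55 at adjusted p from 0.0873 to 0.093 from edgeR. Among all 237 lectin unigenes these 3 were the calls of edgeR, and the list had a median of −0.04. DESeq2 gave no adjusted p for these 3. It called 4 others lower (1.69%, beside 0.81% of all), among them the other 2 unigenes of AT3G16530.

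LTP5, a lipid transfer protein of the type secreted by epidermal cells, fell in 3 of 4 unigenes. TBIU033055 went from 1149 and 1059 to 519 and 435 in NH-JS1 and from 659 and 769 to 370.1 and 403 in NH-JS2. NH-JS1 started higher, and after GA the lines were close together, below every library without GA. The log2 fold change of −1.05 ± 0.101 (edgeR, adjusted p = 0.0178) was matched by −0.95 for TBIU077122 and −0.91 for TBIU076265 (adjusted p = 0.0476 for the last). The other unigene of LTP5, TBIU038431, had −0.58 in NH-JS1 and −0.17 in NH-JS2 and did not pass (adjusted p = 0.196 from edgeR). Its unadjusted interaction p was 0.0254 from edgeR. The list of 70 lipid transfer unigenes was drawn by words of the description. It takes in the wider superfamily of bifunctional inhibitors, lipid transfer proteins and 2S albumins. By edgeR it had 3 lower and 0 higher, and unadjusted 17 lower (24.3%, beside 7.58% of all) and 1 higher. DESeq2 called 9 lower (12.9%, beside 0.81%) and 0 higher, and those other than LTP5 are described by the superfamily name alone. The median log2 fold change was −0.15. In this list the libraries separated downward in both lines for 20.3% of unigenes, beside 6.8% of all. AT3G53980, of that superfamily, had −0.74 and −0.68 in 2 unigenes and did not pass (adjusted p = 0.0794 and 0.093 from edgeR).

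Further named genes fell, each in 1 unigene. AT1G52770 belongs to the NPH3 family, whose founding member relays the blue-light signal in phototropism. Its TBIU012395 went from 282 and 239 to 133 and 105 in NH-JS1 and from 284 and 185 to 89.9 and 81.3 in NH-JS2. All GA libraries were below all others, with a log2 fold change of −1.29 ± 0.156 (edgeR, adjusted p = 0.0464). The other unigene of AT1G52770, TBIU012396, had −1.02 and did not pass (adjusted p = 0.126 from edgeR). AMP1, a carboxypeptidase-like protein that restrains shoot meristem size in Arabidopsis, went in TBIU035439 from 211 and 235 to 122 and 135 and from 208 and 252 to 117 and 138 in the same order. The lines were alike in level and change, at −0.79 in NH-JS1 and −0.84 in NH-JS2 on the log2 scale (adjusted p = 0.0464 from edgeR), and the other 2 unigenes of AMP1 pointed the same way without passing. GRP23, a glycine-rich protein, had 844 and 822 against 413 and 497 in NH-JS1 and 849 and 1014 against 609.9 and 595 in NH-JS2 for TBIU021347. Its GA libraries were below all others, with a log2 fold change of −0.75 ± 0.0934 (edgeR, adjusted p = 0.0464). TBIU056975 had −0.75 and did not pass (adjusted p = 0.126 from edgeR). TBIU044014, the closest match of GRP23 (96.72%), had −0.40 with libraries that overlapped in NH-JS2 (adjusted p = 0.313 from edgeR). Summed over its unigenes, GRP23 had −0.48 (adjusted p = 0.226 from edgeR).

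The rule for named genes left out 6 of the 28 matched calls, and these were chosen after their values were seen. UGT85A1, a glycosyltransferase known to act on cytokinins, fell by 0.72 on the log2 scale, and CYP705A15, a cytochrome P450, fell by 0.57 in TBIU050881. The other unigene of CYP705A15, TBIU050880, had 0.04 in NH-JS1 and −0.41 in NH-JS2 and did not pass (adjusted p = 0.793 from edgeR). AT3G05220, of the heavy metal transport family, fell by 0.57 in TBIU064621, a loose match with an identity of 72.07%. Its closer matches TBIU061524 and TBIU053202 (95.95% for each) had −0.25 and −0.16, with libraries that overlapped in NH-JS2 (adjusted p = 0.35 and 0.524 from edgeR). Summed over its unigenes, AT3G05220 had −0.25 (adjusted p = 0.301 from edgeR). AT4G17940, a tetratricopeptide repeat protein, fell by 0.65, and the glycine-rich AT3G06780 by 0.75 in TBIU066058. Other unigenes of AT3G06780 had unlike values by line. TBIU066060 had −0.70 in NH-JS1 and −2.07 in NH-JS2, with an adjusted interaction p of 0.0677 from edgeR (4.42e-05 unadjusted). TBIU066059 had −0.51 in NH-JS1 and −2.14 in NH-JS2, with an adjusted interaction p of 0.437 from edgeR (0.000636 unadjusted). AT5G41761 had 42.1 and 42.4 normalised read counts in untreated NH-JS1 and 6.06 and 12.01 after GA, 61.2 and 30.4 in untreated NH-JS2 and 9.30 and 9.24 after GA, the largest log2 fold change of the 29 (−2.27) at few counts. The unmatched TBIU012144 had the highest level of the lower calls, 6741 and 6792 against 3936 and 4331 in NH-JS1 and 8315 and 9803 against 5041 and 4430.0 in NH-JS2, and fell by 0.82 (adjusted p = 0.0464 from edgeR). Adjusted p from edgeR over the 7 called unigenes of this paragraph ranged from 0.0464 to 0.0476.

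**Figure D3:**
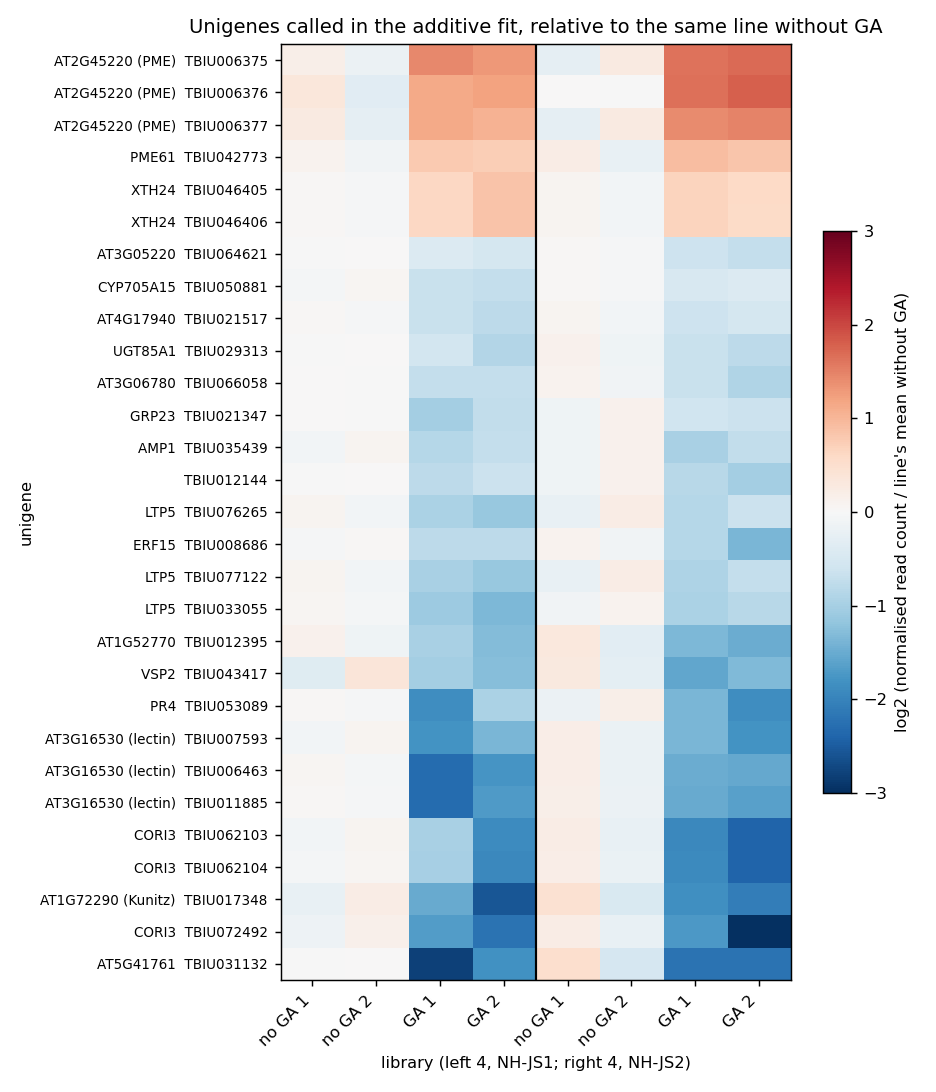
The 29 unigenes called in the additive fit and above the floor in both lines (rows, by fold change) in each of the 8 libraries (columns), coloured by the log2 ratio of the normalised read count to the mean of the same line without GA. The GA columns of each line are red for the 6 higher and blue for the 23 lower unigenes, and the 2 libraries of a group differ most in AT1G72290, AT5G41761 and CORI3.

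Genes of the GA pathway itself had fold changes of 1 sign in the 2 lines in several places, but 0 unigenes of the 3 pathway lists passed the edgeR test. These were 13 unigenes of biosynthesis, 6 of deactivation and 28 of perception and signalling. At an unadjusted p under 0.05 these had 0 higher and 2 lower, 4 higher and 0 lower, and 3 higher and 11 lower (39.3% of the last list, beside 7.58% of all unigenes lower and 5.16% higher). DESeq2 called 3 higher (50%) in deactivation, and 1 higher (3.57%) and 4 lower (14.3%) in perception and signalling. Of all unigenes it called 0.22% higher and 0.81% lower. In the last list the libraries separated downward in both lines for 39.3% of unigenes and upward for 25%, beside 6.8% and 5.88% of all.

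GA2OX2 encodes an enzyme that inactivates GA. Its TBIU037959 stood at 121 and 125 in untreated NH-JS1 and 217 and 233 after GA, and at 114 and 63.6 in untreated NH-JS2 and 147 and 174 after GA. The libraries were apart in each line, and the log2 fold change was 0.85 (adjusted p = 0.105 from edgeR, 0.000671 from DESeq2), and leaving out single libraries moved the adjusted p of edgeR between 0.0497 and 0.32. The other 2 unigenes of GA2OX2 had 0.85 and 0.85, at adjusted p of 0.186 and 0.19 from edgeR. GA2OX6, with normalised read counts of at most 12.01 in any library, had log2 fold changes from 0.81 to 0.87 in 3 unigenes and did not pass.

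For all 6 unigenes of the GID1 receptors, the GA libraries were below those without GA in each line, and 0 passed the edgeR test. GID1A went from 273 and 302 to 195 and 175 in NH-JS1 and from 379.9 and 250.3 to 202 and 165 in NH-JS2 in TBIU064472. The log2 fold change was −0.71 (adjusted p = 0.122 from edgeR, 0.00224 from DESeq2), and TBIU064471 had −0.71. GID1B had 59.7 and 85.7 against 41.4 and 36.0 in NH-JS1 and 82.0 and 104 against 54.8 and 37.9 in NH-JS2 for TBIU012993, at −0.95 (adjusted p = 0.119 from edgeR). Its other 2 unigenes had −1.06 and −1.09. GID1C, with 1 unigene, had −0.43 (adjusted p = 0.27 from edgeR). Summed over their unigenes, GID1A had −0.70, GID1B −0.98 and GID1C −0.41, at adjusted p of 0.148, 0.0997 and 0.309 from edgeR.

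The DELLA genes, which repress GA responses, had log2 fold changes above 0 in both lines, apart from RGL3. RGL2 stood at 489.5 and 455 and 684 and 588 without and with GA in NH-JS1, and at 343 and 416 and 524 and 546 in NH-JS2 (TBIU055116). The libraries did not overlap within a line, and the log2 fold change was 0.46 (adjusted p = 0.119 from edgeR, 0.00406 from DESeq2). RGL1 had 0.49 (adjusted p = 0.187 from edgeR). RGA, the most abundant DELLA here, had 0.24 and 0.18 in 2 unigenes. RGL3 had opposite signs in the lines, 0.43 in NH-JS1 and −0.09 in NH-JS2 for TBIU021622.

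SLY1 and SCL3 were chosen after their values were seen. SLY1 encodes the F-box protein that targets DELLA proteins, and its TBIU059296 went from 657 and 710.1 to 494 and 478 in NH-JS1 and from 805 and 719 to 606 and 559 in NH-JS2. The log2 fold change was −0.44 (adjusted p = 0.0874 from edgeR, 0.00157 from DESeq2). SCL3, a GRAS protein that counteracts DELLA activity, had 156 and 153 against 110.1 and 97.1 and 176 and 166 against 118 and 105 in the same order for TBIU044958, at −0.60 (adjusted p = 0.0794 from edgeR). All GA libraries of SCL3 were below all others. Its other 3 unigenes had log2 fold changes from −0.55 to −0.47.

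Among 13 unigenes of biosynthesis, 9 had the same sign in both lines, beside 59.8% of all unigenes above the floor. The libraries of 1 separated downward in both lines (7.69%, beside 6.8% of all), so that this share was near that of all unigenes. GA20OX3 had low counts, in TBIU052309 for example 69.0 and 70.0 without GA and 50.5 and 66.1 with it for NH-JS1, 111 and 99.6 without and 108 and 24.0 with it for NH-JS2. The low value of NH-JS2_GA replicate 2 stood apart, and the 3 unigenes had log2 fold changes from −0.65 to −0.48. KAO2, which acts before GA20OX in the pathway, had −0.68 in TBIU020580 (adjusted p = 0.255 from edgeR), with −0.36 in NH-JS1 and −0.91 in NH-JS2. No GA3OX unigene was in the table tested. Among 10 unigenes of GASA peptides, small secreted proteins many of which respond to GA, 0 were called by edgeR or DESeq2 and 1 was higher at an unadjusted p under 0.05.

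**Figure D4:**
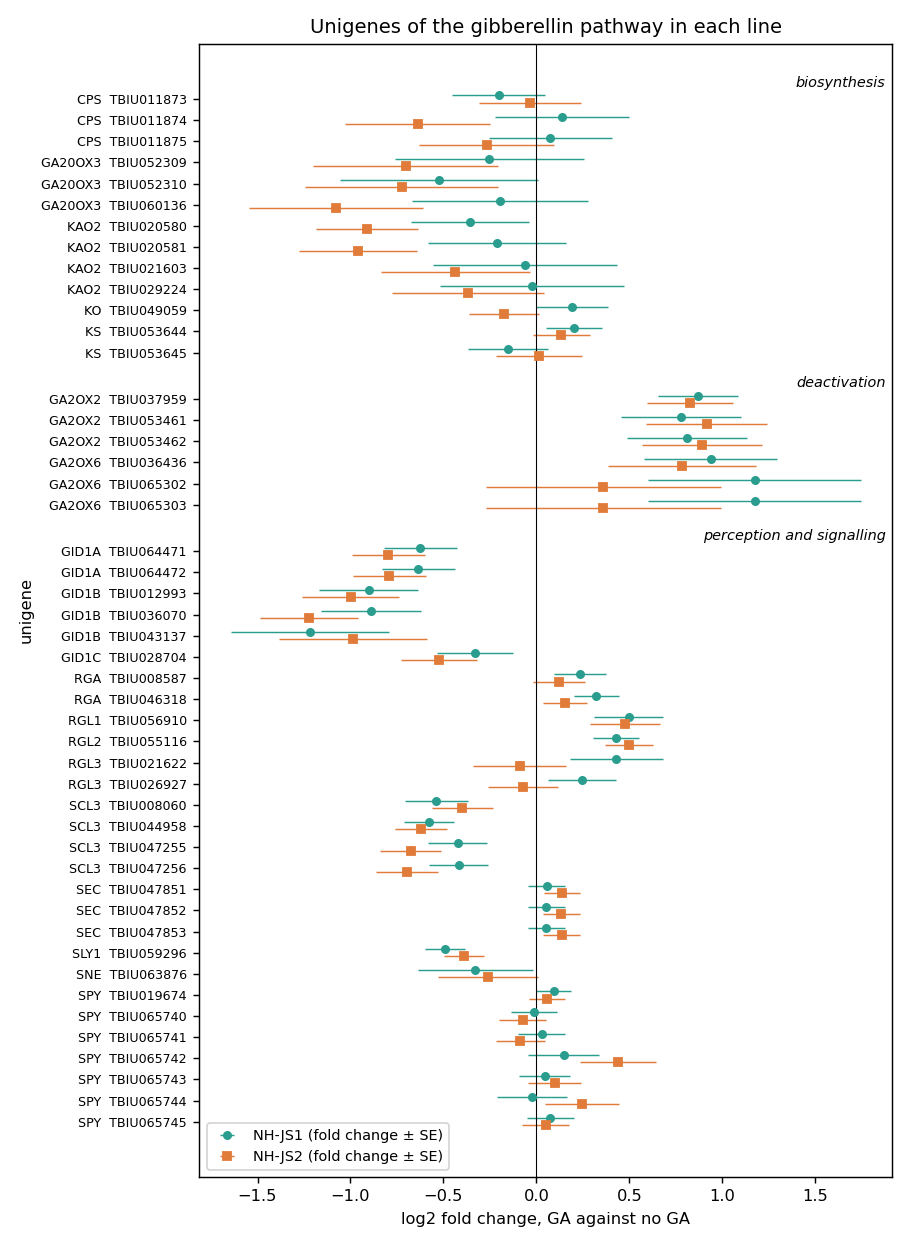
Log2 fold change of GA against no GA with its standard error in NH-JS1 (circles) and NH-JS2 (squares) for the unigenes tested of GA biosynthesis, deactivation, and perception and signalling, each named by its Arabidopsis match. GA2OX2, GA2OX6, RGL1 and RGL2 lie above 0 in both lines, and GID1A, GID1B, GID1C, SCL3 and SLY1 lie below 0 in both, although none passed the edgeR test.

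Of the flowering genes, FT, the mobile floral signal, was too low in NH-JS1 for a response there to be read. TBIU006696 had 1.68 and 2.76 normalised read counts in untreated NH-JS1 and 2.02 and 1.00 after GA, next to the floor, and 20.8 and 16.6 in untreated NH-JS2 and 62.0 and 121 after GA. GA libraries were above those without GA in NH-JS2, and the additive fit gave an adjusted p of 0.134 from edgeR. The interaction had an unadjusted p of 0.0373 and an adjusted p of 1 in edgeR. SOC1, a MADS-box integrator, had 249.8 and 307 and 349.5 and 274 without and with GA in NH-JS1, and 2418 and 1474 and 2301 and 3141 in NH-JS2. These overlapped in both lines, and the log2 fold change was 0.34 (adjusted p = 0.455 from edgeR).

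FLC, the repressor of flowering that vernalization silences, was not called. TBIU041409 went from 776 and 783 to 661 and 662 in NH-JS1 and from 559 and 484 to 441 and 403 in NH-JS2. Replicates were close and did not overlap within a line, but the change was small, −0.27 on the log2 scale (adjusted p = 0.206 from edgeR). In all, 6 of 8 FLC unigenes had an unadjusted p under 0.05, with log2 fold changes from −0.56 to −0.24, and the other 2 had −0.17 and 0.01. ELF3, a clock component, had 7 unigenes from −0.22 to 0.11, none of which passed at an unadjusted p of 0.05. The list of floral integrators and repressors had 0 of 49 unigenes called by edgeR, 1 higher (2.04%, beside 5.16% of all) and 13 lower (26.5%, beside 7.58%) unadjusted and 2 lower by DESeq2 (4.08%, beside 0.81%). Those 2 belong to TOE1, an AP2-like repressor of flowering, at −0.40 and −0.42.

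Other lists had 0 calls by edgeR, and their counts are set here against all unigenes, of which 5.16% were higher and 7.58% lower without adjustment (p under 0.05), and 0.22% and 0.81% by DESeq2. Light-harvesting proteins had 0 higher and 13 lower (27.7%) of 47 unigenes unadjusted and 0 by DESeq2, with a median log2 fold change of −0.18, and their libraries separated downward in both lines for 36.2%, beside 6.8% of all. Ribosomal proteins had 2 higher (0.247%) and 170 lower (21%) of 809 unigenes unadjusted and 14 lower (1.73%) by DESeq2. Their median was 0.02 in NH-JS1 and −0.25 in NH-JS2. The list of tubulins and actins, which build the cytoskeleton, also holds the actin-binding protein AT5G48460, called higher by DESeq2. It had 25 higher (10.4%) and 7 lower (2.9%) of 241 unadjusted and 6 higher (2.49%) by DESeq2. Of peroxidases, 20 of 105 were lower (19%) and 3 higher (2.86%) unadjusted. Clock and photoperiod genes had 0 higher and 1 lower of 67.

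**Figure D5:**
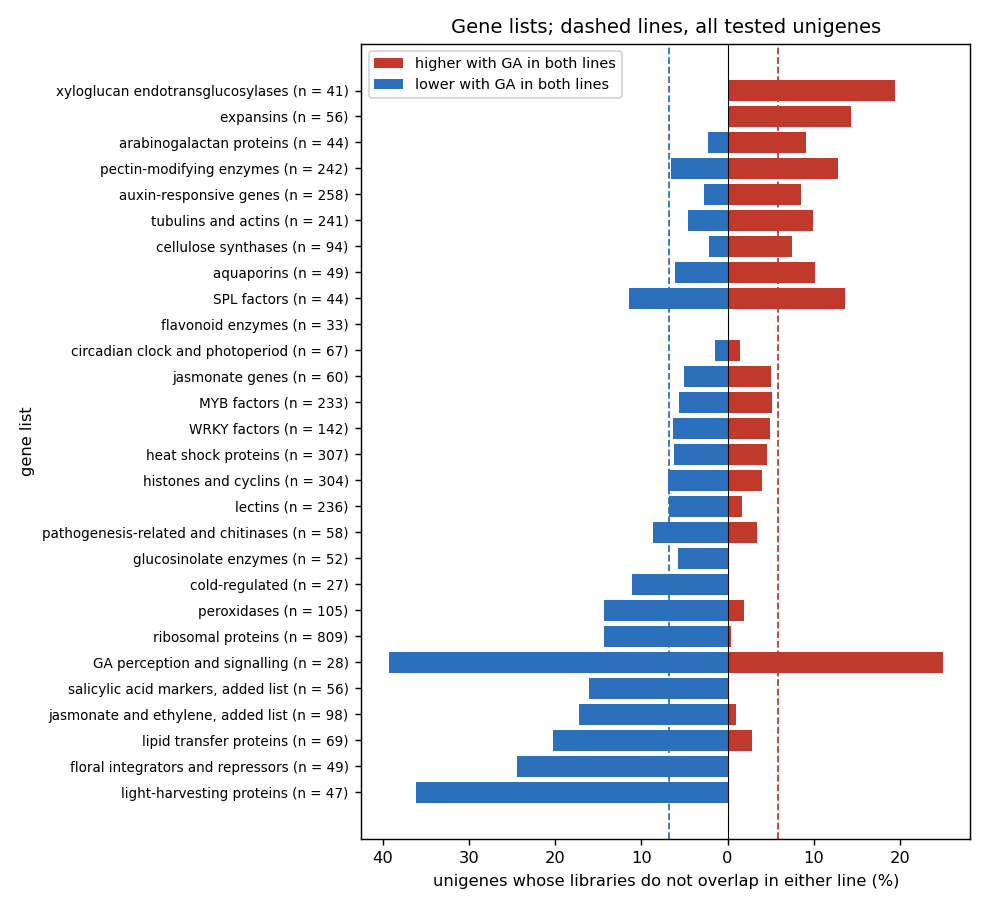
Share of the unigenes of each gene list (in %, lists with at least 20 unigenes above the floor) whose libraries do not overlap between GA and no GA in either line, to the right for higher and to the left for lower with GA. Dashed lines mark the shares over all unigenes, 5.88% higher and 6.8% lower. XTH and expansin unigenes extend to the right alone, and light-harvesting unigenes to the left alone, at 36.2%.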

How the data were processed

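RNA-seq of 8 libraries of radish shoots was analysed, 2 per group. After quality trimming, the authors used Bowtie2 2.1.0 to map reads to radish gene sequences, counted them with their own scripts and deposited raw read counts for 78395 unigenes, of which 60161 had an Arabidopsis match. TopHat is named as well in the submitters' processing notes. The deposited normalized counts (taken as a score, since scaling to library size and rounding had changed them) and the authors' log2 fold changes between groups, which hold their own comparisons, were not used. The unigenes have no genome coordinates here. For reads that fit several unigenes, their handling was not given in the sources used here.

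In R 4.3.3, edgeR 4.0.16 filtered low counts by group (65934 unigenes left, 55462 matched), scaled by TMM and tested GA by quasi-likelihood in a model of line plus GA, with Benjamini-Hochberg adjustment over all unigenes. Fold changes by line and the interaction came from a fit with 1 mean per group. DESeq2 1.42.0 was an alternative, and the others are listed with their effect at the end. Leaving out unigenes at the floor was added after the data were seen. The tests were tried on simulated data. P-values measure the spread between pools of plants.

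Named were the matched calls with libraries apart in both lines and a mean of at least 50 in 1 or more groups (up to 15 per direction), called list members (up to 4 per list), and the FT, SOC1, FLC, ELF3, GA20OX, GA3OX, GA2OX, GID1 and DELLA genes. The comparison, the gene lists and this rule were chosen with earlier results of these data known. No test was applied to a list. Figures were drawn with matplotlib 3.10.9.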

Additional observations from a re-analysis of the deposited data

How the results depend on the processing

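In each alternative that kept the unigenes apart, all 29 calls kept their direction and an unadjusted p under 0.05. Of 902 values of single unigenes under an alternative, 640 kept their side of the threshold, 253 fell short of it, 9 passed and 0 changed sign. All 29 calls remained with RLE size factors, 27 without a filter on low counts, 26 with a mean of at least 10 and 24 after 1 was subtracted from every count.

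The counts of calls depended on the fit. The 6 higher and 28 lower unigenes (23 above the floor) became 145 and 534 (528) with DESeq2, 27 and 57 (57) when the 2 within-line effects were averaged, and 1 and 2 (1) when counts were summed over each match. Subtracting 1 from every count left 18 lower. At an adjusted p of 0.01 they were 0 and 1 (0), and at 0.10 they were 27 and 104 (26 and 94 above the floor). At the thresholds of the study's methods, 0 higher and 1 lower became 10 and 46 with DESeq2 and 5 and 4 with averaged effects, and the 1 lower became 0 with the replicate block, with 1 subtracted, or with summed counts. Leaving out single libraries gave 0 to 8 higher and 0 to 26 lower (0 to 23 above the floor), and 0 to 4 lower at the study's thresholds. The correlation of the lines was 0.182 over all 65934 unigenes, 0.282 with a mean of at least 100, 0.117 without a filter and 0.102 to 0.177 without single libraries. The cause of these shifts was not tested.

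The replicate numbers are shared by the groups. Deviations of same-numbered libraries correlated between groups at −0.162 to 0.209 over 6 pairs of groups, with the highest value between NH-JS2 and NH-JS2_GA. Whether the numbers pair the libraries was not tested, since these values had no reference to be set against. With the replicate block, 5 higher and 24 lower were called (4 and 20 above the floor), and 18 of the 29 remained.

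On simulated counts for 65478 unigenes, changed in both lines at a mean of at least 100, edgeR recovered 52.2% at a log2 fold of 0.6 and 100% at 1 and at 2, with 9 unchanged unigenes called, and DESeq2 recovered 59.7%, 98.5% and 100%, with 21. Each simulated unigene had the spread usual at its level, not a spread of its own, and its change was equal in both lines. Recovery was not simulated at lower counts, for unequal changes or for the spread of single unigenes. These shares need not hold for the real counts.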

Other observations

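With the calls of the report included, 26 unigenes were higher (0.0401%) and 94 lower (0.145%) with GA at an adjusted p of at most 0.10 from edgeR, above the floor and with the same sign in both lines. The genes below lie between 0.05 and 0.10, did not pass the test of the report, and were picked with these values in view. EPFL9, also called stomagen, a peptide that promotes the formation of stomata, had a mean normalised read count of 128 without GA and 80.5 with it in NH-JS1, and of 155 and 96.3 in NH-JS2, which gave −0.68 on the log2 scale (adjusted p = 0.0794, edgeR). A further unigene of it had −0.70. ATH1, a homeobox gene that keeps stem growth low in Arabidopsis rosettes, went from 443 to 261 and from 539.7 to 362 in the same order (−0.67, adjusted p = 0.0858 from edgeR). RL4 (AT2G18328), a small RAD-like MYB protein, had −1.10, from −0.76 in NH-JS1 and −1.50 in NH-JS2. Its interaction had an unadjusted p of 0.00563 from edgeR and did not pass after adjustment.

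Genes of sugar metabolism and of the wall also lay in this range. AT1G62660, a vacuolar invertase, had −0.98, −0.85 and −0.94 in 3 unigenes, and beta-amylase 5 (AT4G15210) had −1.22. AT4G19420, which removes acetyl groups from pectin, had 0.59 in TBIU011393, at NH-JS1 means of 1132 and 1754 and NH-JS2 means of 1035 and 1512 without and with GA, and 2 further unigenes had 0.59 and 0.59. PATL1, which binds membranes at the forming cell plate, had 0.43 to 0.49 in 3 unigenes. Protease inhibitors besides AT1G72290 were KTI1 (−1.48), TI2 (−0.69 and −0.75) and the cystatin AT5G47550 (−0.88), all at an adjusted p over 0.05 from edgeR.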
